A study of Homo sapiens with 8 samples.

Results

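The 10 genes described here, ATF4, PHGDH, PSAT1, PSPH, SHMT1, SHMT2, MTHFD2, ASNS, TRIB3 and CHAC1, cover the serine synthesis route, the folate reactions that take up its carbon, and the amino acid stress factor ATF4 with some of its known targets. They were taken by name, with earlier results of these data known. H3K27ac, the acetylated form of histone H3 found at active promoters and enhancers, had been mapped by ChIP-seq in A549, a lung adenocarcinoma cell line of human origin in which NRF2 is persistently active. Peaks of the 6 libraries that shared at least 1 bp were joined into merged regions. The regions that touched a gene or the 20 kb on each side of it were kept, which gave 33 of the 49186 merged regions. Of these, 21 were called in at least 3 of the 6 libraries and could be tested, out of 32673 tested regions in all.

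All libraries came from the same line 48 h after siRNA transfection. The 3 control libraries had received control siRNA, and 3 had received an siRNA against NRF2. Replicate 1 of these was given siRNA 28, while siRNA 30 was used for replicates 2 and 3. The line is a single cancer line, the knockdown was transient, and the siRNA acts on the NRF2 mRNA and not on its locus. The region at the start of NFE2L2, which encodes NRF2, was called in all 6 libraries with a score change of -0.04 and does not check the knockdown. Starts of 5 of 6 epithelial marker genes were called in all 6 libraries. The starts of all 4 lung lineage markers (NKX2-1, SFTPB, SFTPC, NAPSA) were called in none of them. Of 7 markers of other cell types, 0 had a start called in all 6 libraries and 6 had a start called in none. In the windows of these markers, regions that held no start were called higher with NRF2 siRNA near KRT19 (change 1.97, limma adjusted p = 0.00677) and DCN (1.08, limma adjusted p = 0.0253), and their part in the results was not tested.

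The serine synthesis route turns a glycolytic intermediate into serine through PHGDH, PSAT1 and PSPH, and SHMT1 and SHMT2 pass a carbon of serine to folate. ATF4 is a transcription factor made when amino acids run short or the endoplasmic reticulum is stressed. It binds with C/EBP partners to composite elements near its target genes. In lung cancer cells NRF2 is known to raise the serine genes by way of ATF4. H3K27ac at these genes therefore bears on whether the chromatin mark at them depended on NRF2.

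The peak lists hold no read counts, and the fold enrichment of a peak is not on a common scale in lists of different length. Values are therefore given as percentiles: the share of a library's own peaks whose fold enrichment was at or below that of the highest peak in the region, with 0 for a region the library had not called. The control lists held 27941, 34747 and 41571 peaks and the NRF2 siRNA lists 23885, 34986 and 39108. Replicate 1 had the shortest list and, by the study's reporting summary, the fewest reads in both groups, its peak names lack the flow cell identifier of replicates 2 and 3, and it was the only pair with siRNA 28. The effect of siRNA 28 cannot be told apart from what else set that pair apart. The test was limma on normal scores of the ranks, with Benjamini-Hochberg adjustment over all 32673 regions, and a change is NRF2 siRNA minus control in score units.

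Matches to TGATGNAA, the core of the C/EBP-ATF response element, are shown first because ATF4 acts through it. ATF4 targets are known in part by this element, so its presence is not independent of the choice of genes. Both strands were searched in the central 1 kb of each region. A match was found in 6 of the 10 regions that hold the start of a member's canonical transcript, against 7.26% of the 9220 regions that hold a canonical start of any coding gene and 16.7% of all merged regions. Canonical starts were set as the anchor after the data were seen. Over all 33 member regions, 9 held a match, 27.3%. The set planned beforehand was each gene's start region by the gene record and its best-ranked other region. Of these 19 regions, 8 held a match, 42.1%. The stretches below give 10 bases on each side, read on the strand that spells TGATGNAA, with the element in capitals (hg19).
ASNS, chr7:97501781-97501788, minus strand: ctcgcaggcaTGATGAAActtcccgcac
CHAC1, chr15:41245460-41245467, minus strand: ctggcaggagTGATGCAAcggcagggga
PSAT1, chr9:80912308-80912315, minus strand: ctgtgcacgcTGATGCAAagcgcctagg
MTHFD2, chr2:74426340-74426347, plus strand: ctgctgcagcTGATGAAAtcgcggagcc
PHGDH, chr1:120255420-120255427, plus strand: gcccctcgtcTGATGCAAgactgctccg
SHMT2, chr12:57623953-57623960, plus strand: gccctgcagaTGATGCAAccgagcttca
SHMT2, chr12:57623975-57623982, minus strand: gacccctgccTGATGCAAgcagtgaagc

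The ASNS match lay 68 bases upstream of the canonical start and that of CHAC1 209 bases upstream, each in an exon of another annotated transcript of the gene. Matches in PSAT1, MTHFD2 and PHGDH lay 267, 598 and 863 bases downstream of the start, all in an intron. The 2 SHMT2 matches lay 459 and 481 bases downstream, on opposite strands, in an exon of another transcript. ASNS, MTHFD2, PHGDH and the first SHMT2 match read on the strand of the gene. In the 300 bases at the canonical start itself (250 before and 50 from it), 2 of 10 members held a match, ASNS and CHAC1, against 2.48% of 19799 coding starts. For the start of the gene record, 1 of 10 did, TRIB3, against 2.73% of 20112. These shares are a description of 10 genes several of which are textbook ATF4 targets.

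**Figure D1:**
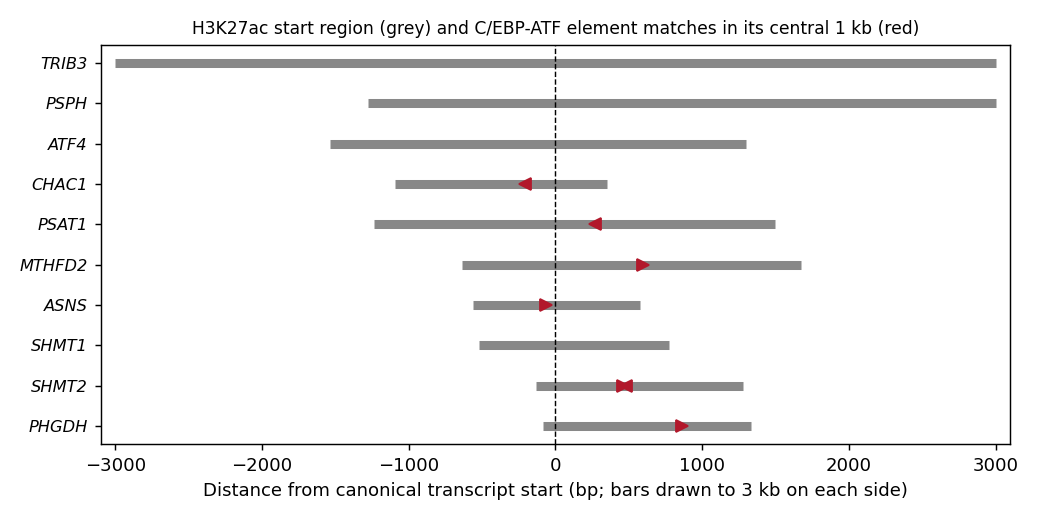
The merged H3K27ac region at the canonical start of each of the 10 genes (grey bars, drawn to 3 kb on each side) is drawn by distance from that start in bp, oriented with transcription to the right. Red arrowheads are TGATGNAA matches in the central 1 kb of the region, pointing right where they read on the gene's strand; 6 genes have at least 1, and the matches of ASNS and CHAC1 lie upstream of the start.

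The antioxidant response element core TGACNNNGC, which NRF2 binds with small MAF proteins, was searched the same way. It was present in the central 1 kb of 12 of 33 member regions, 36.4%, where 35.2% of all merged regions held it. Of the 10 regions that hold a canonical start, 4 had it in their centre, against 35.9% of all regions that hold a coding canonical start. The centre of a wide region, such as the 27849 bp TRIB3 domain, need not lie at the start. Only MTHFD2 had a match within the 300 bases at its start, TGACTGCGC at chr2:74425748-74425756 on the opposite strand, against 14.0% of coding starts. Both shares over regions lay near those of the background.

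No member region passed the threshold. Of the 21 tested, 0 were called lower and 0 higher by limma, where 3.39% of all tested regions were called lower and 2.01% higher. None of the 33 regions was called in all 3 control libraries and 0 NRF2 siRNA libraries, and none the other way, against 2.27% and 0.83% of all merged regions. At an unadjusted p under 0.05, 3 of 21 passed, at ASNS and at a pair of regions near PSPH, where 22.5% of all regions did. The change was below 0 in 17 of 21 and above 0 in 4, where 48.5% of all tested regions lay below 0. The median change over the 21 was -0.17, beside 0.02 over all tested regions. Scores were lower in all 3 same-numbered pairs in 7 of 21 and higher in all 3 pairs in 0, where the shares over all regions were 22.9% and 28.6%. Of all tested regions, 6730 were called in neither library of pair 1. Unequal list lengths alone gave them a score difference of 0.25 there, so they could not be lower in all 3 pairs. Regions of PHGDH, SHMT1 and CHAC1 were among them. Such ties also enter the share below 0 and the median. Percentiles of the groups did not overlap in 3 of the 21, all lower with NRF2 siRNA, beside 12.8% of all tested regions lower and 7.39% higher. In all, 13 of 33 member regions, 39.4%, were called in all 6 libraries, against 34.2% of all merged regions. The 12 untested regions were called in 1 library (5) or 2 libraries (7), at percentiles from 1.17 to 40.1, and 10 of them were called in control replicate 3, which had the longest list.

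**Figure D2:**
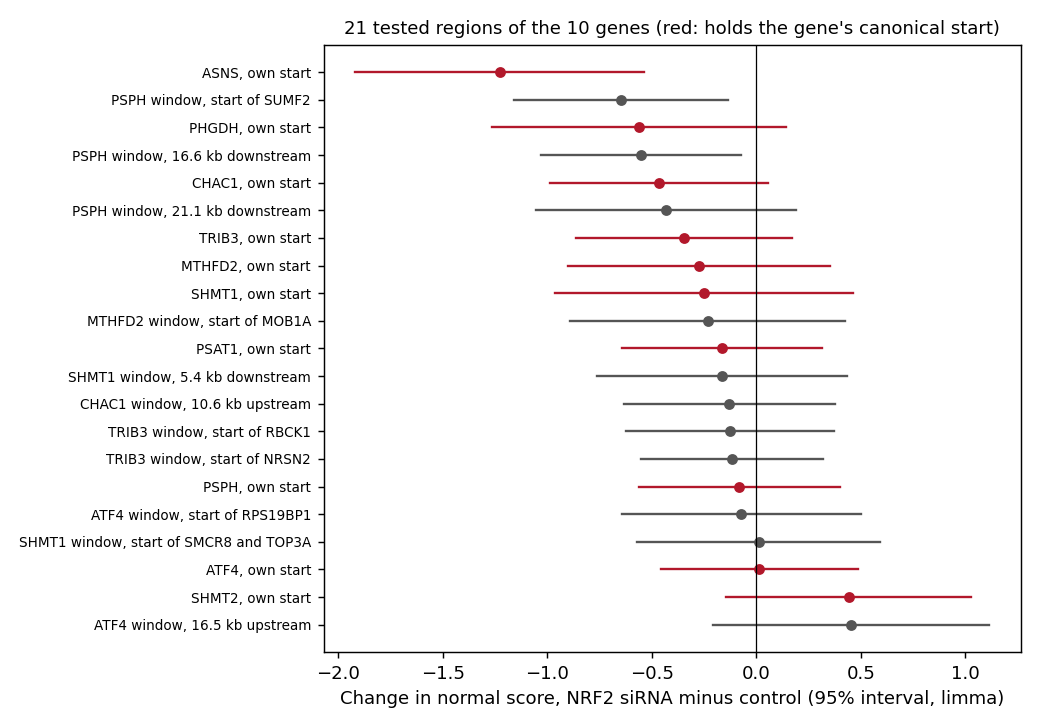
Each point is the change in normal score (NRF2 siRNA minus control siRNA) at 1 of the 21 tested regions with its 95% interval from limma, red for regions that hold a member's canonical start. Points left of 0 number 17, and the ASNS start at -1.23 lies farthest from 0.

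ATF4, the transcription factor at the head of the group, has its start in a region of 2831 bp (chr22:39915032-39917862) that covers an exon and UTR of the gene. Its percentiles were 82.2, 91.8 and 94.8 in control replicates 1 to 3 and 85.0, 90.2 and 93.7 in NRF2 siRNA replicates 1 to 3. The groups overlapped, and the means of 89.6 ± 6.56 and 89.6 ± 4.37 (SD, n = 3 each) were almost equal. The change was 0.01 (SE 0.21, 95% interval -0.46 to 0.49, limma adjusted p = 0.977). Its other best-ranked region, at the start of RPS19BP1 (chr22:39927937-39929389), had percentiles of 59.8, 72.2 and 77.6 against 18.2, 73.8 and 82.3, with NRF2 siRNA replicate 1 far below the rest. A region 16.5 kb upstream, in MIEF1, was called in 2 control and 3 NRF2 siRNA libraries and had the highest change among the 21, 0.45 (limma adjusted p = 0.407).

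PHGDH oxidises 3-phosphoglycerate in the first step of the serine route. The region at its canonical start (chr1:120254471-120255888) was not called in control replicate 1 and stood at percentiles 26.3 and 57.3 in replicates 2 and 3. With NRF2 siRNA it was called in replicate 3 alone, at 22.97. This was the lowest of the 10 starts in mean percentile in either group, with a change of -0.56 (SE 0.31, limma adjusted p = 0.328). Because neither library of pair 1 called it, that pair enters with a score difference of 0.25 that comes from the unequal list lengths and not from the region. In pairs 2 and 3 the differences were -1.04 and -0.90. Leaving out 1 library moved the change between -0.31 without control replicate 3 and -0.81 without control replicate 1. The gene record of PHGDH begins farther upstream, at chr1:120191034, in a region shared with the start of ZNF697, which was called in replicate 3 of each group at percentiles 40.1 and 28.2 and could not be tested.

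PSAT1, the aminotransferase that follows, had a start region of 2737 bp (chr9:80910802-80913538). Percentiles were 59.8, 78.3 and 87.2 in controls and 55.3, 71.6 and 77.5 with NRF2 siRNA. Each NRF2 siRNA library lay below its same-numbered control, with differences of -4.50, -6.69 and -9.75 points, but the groups overlapped widely (change -0.17, SE 0.21, limma adjusted p = 0.704). On the score scale, pair 1 differed by 0.07 in the other direction, and the change was -0.04 without control replicate 3 and -0.30 without control replicate 1. A region 3.8 kb inside the gene (chr9:80915830-80917338) was called in NRF2 siRNA replicates 2 and 3 at percentiles 37.5 and 36.6 and in 0 controls.

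PSPH, the phosphatase that releases serine, begins in a region of 8192 bp (chr7:56112224-56120415) shared with CCT6A, a chaperonin subunit gene read in the other direction, so the mark there cannot be given to either gene. Percentiles were 86.2, 92.0 and 93.3 in controls and 74.3, 91.5 and 93.5 with NRF2 siRNA, with replicate 1 apart and the others level (change -0.08, limma adjusted p = 0.867). A region at an alternative start inside PSPH (chr7:56100884-56102670) showed more separation. Its percentiles were 74.3, 75.2 and 84.5 in controls and 18.8, 60.3 and 72.6 with NRF2 siRNA. The groups did not overlap, but the highest NRF2 siRNA value lay only just under the lowest control. The change was -0.55 (SE 0.21, limma adjusted p = 0.161), and the exact permutation test of the percentiles gave p = 0.1, the smallest that 3 against 3 libraries allow.

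A region 9.7 kb upstream of PSPH (chr7:56129042-56133400), which holds the start of SUMF2 and overlaps exons of CCT6A and SUMF2, ranked lower in every pair. Percentiles were 65.7, 78.5 and 90.1 in controls and 43.6, 49.4 and 66.6 with NRF2 siRNA (change -0.65, SE 0.23, limma adjusted p = 0.13). The length called went the other way, 1490, 1901 and 2173 bp in controls and 2794, 4007 and 3808 bp with NRF2 siRNA, with no overlap. For a broad peak the fold value is taken over the whole peak, so a wider call and a lower fold are not separate measurements. Ranked by the width of the peak, the change was 0.77 (limma adjusted p = 0.124), and the direction at this region thus depends on which value is ranked.

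SHMT1, the cytosolic enzyme that moves a carbon from serine to folate, had a start region of 1292 bp (chr17:18266091-18267382). It stood at percentiles 6.85, 64.5 and 63.1 in controls. With NRF2 siRNA it was not called in replicate 1 and stood at 53.1 and 56.7 in replicates 2 and 3. Replicate 1 was far below the others in each group, and the change of -0.25 had a 95% interval of -0.96 to 0.46 (limma adjusted p = 0.698). A region 5.4 kb inside the gene was called in replicates 2 and 3 of both groups (limma adjusted p = 0.771). Its pair 1 holds the tied score difference of 0.25 of a region called in neither library. The region at the shared start of SMCR8 and TOP3A had a change of 0.01 (limma adjusted p = 0.987).

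SHMT2, its mitochondrial counterpart, was the start region with the highest change. The region of 1413 bp (chr12:57623362-57624774) holds the canonical start and opens 6 bp past the start of the gene record. Percentiles were 6.35, 47.6 and 71.4 in controls and 57.5, 58.4 and 68.6 with NRF2 siRNA. The NRF2 siRNA values were close together and lay inside the control range, and control replicate 1 was far below the rest. The change was 0.44 (SE 0.26, limma adjusted p = 0.357), made up of 1.09 in pair 1, 0.26 in pair 2 and -0.02 in pair 3. Without control replicate 1 it was 0.23 (limma adjusted p = 0.645). The other region in the SHMT2 window (chr12:57632722-57634307), 9.4 kb downstream, was called in control replicate 3 alone, at percentile 26.35, and could not be tested.

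MTHFD2, the mitochondrial folate dehydrogenase and cyclohydrolase, had its canonical start in a region of 2310 bp (chr2:74425106-74427415). Percentiles were 63.2, 69.9 and 84.6 in controls and 71.1, 45.2 and 69.0 with NRF2 siRNA. Replicate 1 was higher with NRF2 siRNA and replicates 2 and 3 lower (change -0.27, SE 0.28, limma adjusted p = 0.614). The change was -0.53 without NRF2 siRNA replicate 1 and -0.03 without NRF2 siRNA replicate 2. The gene record begins 12.4 kb farther upstream, where no region was called. The region nearest to it, at the start of MOB1A (chr2:74405157-74406636), had percentiles of 17.1, 38.8 and 70.8 in controls, and was not called in NRF2 siRNA replicate 1 but stood at 45.3 and 57.1 in replicates 2 and 3 (limma adjusted p = 0.695).

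ASNS makes asparagine from aspartate and glutamine and is a classic ATF4 target. It had 1 region in its window, of 1144 bp at the gene's start (chr7:97501142-97502285), which covers an exon and UTR of the gene and holds the element shown above. The controls stood at percentiles 51.9, 57.6 and 71.2. With NRF2 siRNA the region was not called in replicates 1 and 2 and stood at 43.8 in replicate 3. All NRF2 siRNA values lay under all control values. In pairs 1 and 2 the control called the region and the NRF2 siRNA library did not. The control and NRF2 siRNA lists held 27941 and 23885 peaks in pair 1 and 34747 and 34986 in pair 2. With each list cut to its top 23885 peaks by fold, the change at ASNS was -1.18 (limma adjusted p = 0.0111). The share of all regions called in that fit is not given here. The part of list length was not tested further. In the full lists the mean percentile was 60.2 ± 9.91 in controls and 14.6 ± 25.3 with NRF2 siRNA (SD, n = 3 each). The exact permutation p was 0.1 unpaired and 0.25 paired by replicate number, each the smallest possible.

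The change at ASNS was -1.23 (SE 0.31, 95% interval -1.92 to -0.54), with -1.14, -1.81 and -0.73 in pairs 1, 2 and 3. With limma the unadjusted p was 0.00298 and the adjusted p 0.0526, just outside the threshold. With the replicate number as a block, the limma adjusted p was 0.0192, and ASNS was then the single member region called lower, in a fit that called 6.62% of all regions lower. Over the 13 alternative fits that kept the region, 5 passed the threshold and all 13 gave a change below 0. The length called was 533, 738 and 1086 bp in controls and 1082 bp in the NRF2 siRNA library that called it, so in replicate 3 the fold rank was lower and the length about equal.

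TRIB3, a pseudokinase induced by ATF4 and CHOP, lay in a domain of 27849 bp (chr20:339314-367162) that covers its gene record start and its canonical start 17.9 kb downstream. The domain also overlaps exons and UTR of NRSN2. Its percentile is that of its highest peak, which need not lie at a start of TRIB3. This domain had the highest mean percentile of the 10 start regions in controls and was on top in control replicate 1. Percentiles were 96.4, 91.9 and 93.2 in controls and 87.9, 84.5 and 90.3 with NRF2 siRNA. The groups did not overlap. The exact permutation p was 0.1 unpaired and 0.25 paired by replicate number, each the smallest possible. The change of -0.35 had a 95% interval of -0.86 to 0.17 (limma adjusted p = 0.417). Ranked by the length-weighted mean fold of its peaks, the change was -0.71 (limma adjusted p = 0.0745) and the mean percentile difference -18.7 points in place of -6.29. Without control replicate 1 the change was -0.18. The length called was 15595, 23321 and 27849 bp in controls and 10290, 16504 and 18228 bp with NRF2 siRNA, lower in each pair. The whole lists were also shorter in covered length in each pair, at 64.7, 85.0 and 113.3 Mb in controls and 46.3, 84.8 and 105.7 Mb with NRF2 siRNA. Control replicates 2 and 3 called it as 1 peak, and the other 4 libraries as 3 peaks. A region 6.4 kb upstream of the gene record start (chr20:335491-337035) was called in control replicates 2 and 3 at percentiles 2.37 and 6.68. It was called in 0 NRF2 siRNA libraries and could not be tested. The neighbouring domain at the start of RBCK1 (chr20:379582-391112), a ubiquitin ligase subunit gene, stood at 95.1, 97.2 and 98.2 against 97.3, 94.8 and 95.1 (change -0.12, limma adjusted p = 0.794).

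CHAC1, which breaks down glutathione and is induced by ATF4, had a start region of 1447 bp (chr15:41244575-41246021). Percentiles were 67.7, 80.2 and 88.4 in controls and 27.2, 64.9 and 79.1 with NRF2 siRNA. Every NRF2 siRNA library lay below its same-numbered control, with differences of -40.5, -15.3 and -9.35 points, while the groups as a whole overlapped. The change was -0.46 (SE 0.23, 95% interval -0.99 to 0.06, limma adjusted p = 0.275), with -0.56, -0.47 and -0.36 in the 3 pairs. NRF2 siRNA replicate 1 set much of the percentile difference, which was -21.7 points with it and -6.79 without it. A region 18.8 kb downstream (chr15:41263930-41264993) was called in NRF2 siRNA replicates 2 and 3 at percentiles 29.2 and 38.6 and in 0 controls. Another 10.6 kb upstream had a change of -0.13 (limma adjusted p = 0.788). Neither library of pair 1 called it, so that pair holds the tied score difference of 0.25. Pairs 2 and 3 differed by -0.07 and -0.57.

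**Figure D3:**
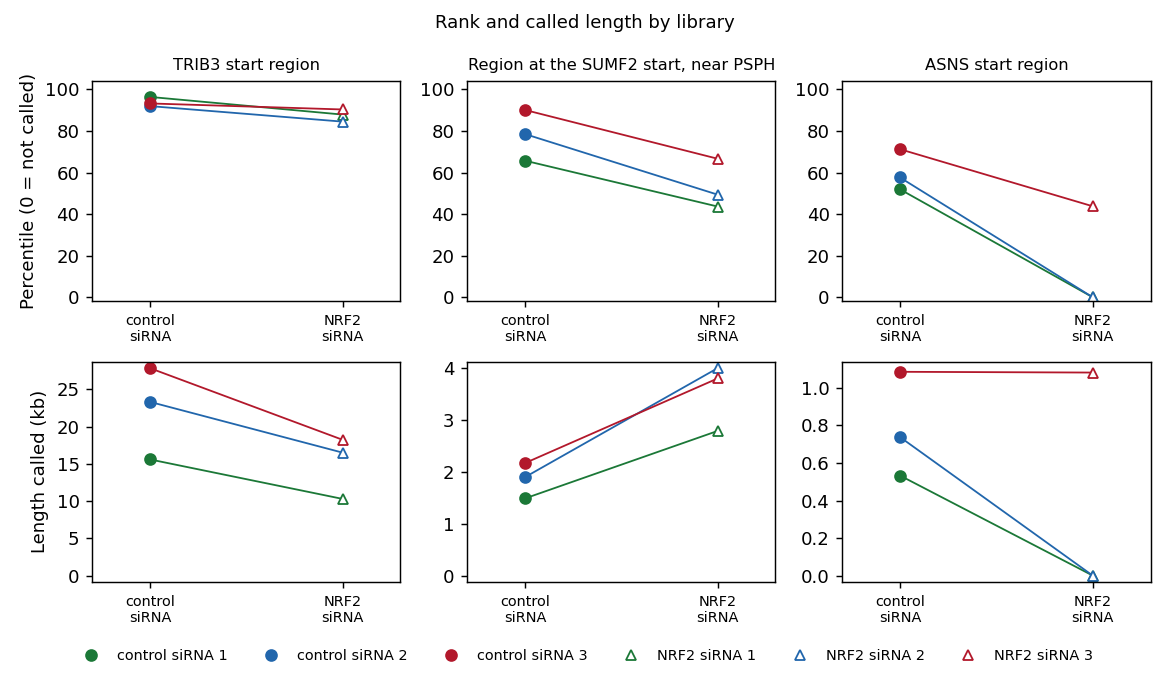
Percentile of fold enrichment (top row) and length called in kb (bottom row) are shown for each of the 6 libraries at 3 regions, with lines joining same-numbered libraries and 0 for a library without a call. Length was lower with NRF2 siRNA in every pair at TRIB3 and higher in every pair at the SUMF2 start, while the ASNS start was called in 1 of 3 NRF2 siRNA libraries.

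Set in order of mean control percentile, the canonical start regions ran TRIB3 (93.8 ± 2.27), PSPH (90.5 ± 3.76), ATF4 (89.6 ± 6.56), CHAC1 (78.8 ± 10.4), PSAT1 (75.1 ± 14.0), MTHFD2 (72.6 ± 10.99), ASNS (60.2 ± 9.91), SHMT1 (44.8 ± 32.9), SHMT2 (41.8 ± 32.9) and PHGDH (27.9 ± 28.7; SD, n = 3 each). TRIB3, PSPH and ATF4 could not be put in order, since each was on top in 1 of the 3 control libraries. The regions of TRIB3 and PSPH also cover exons of NRSN2 and CCT6A. ATF4 stood above CHAC1, CHAC1 above PSAT1, MTHFD2 above ASNS and SHMT2 above PHGDH in all 3 controls. The other neighbours changed places between libraries. With NRF2 siRNA the means were 87.6 for TRIB3, 86.4 for PSPH, 57.1 for CHAC1, 68.1 for PSAT1, 61.8 for MTHFD2, 36.6 for SHMT1, 61.5 for SHMT2 and 7.66 for PHGDH. Of the 10 starts, 9, 10 and 10 were called in the control libraries and 7, 8 and 10 in the NRF2 siRNA libraries. Of all 49186 merged regions, 25004, 31798 and 40477 were called in controls and 20519, 32203 and 37473 with NRF2 siRNA.

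**Figure D4:**
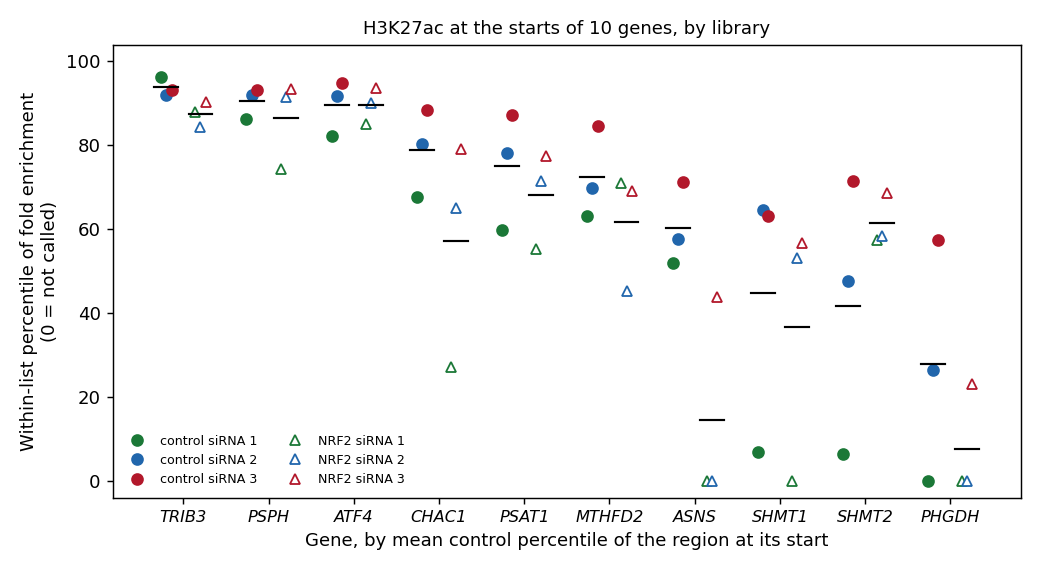
Within-list percentile of fold enrichment at the canonical start region of each gene in every library (filled circles control siRNA, open triangles NRF2 siRNA, colour by replicate number, bars for group means, 0 for no call). The groups overlap at 8 of the 10 genes and are apart at ASNS and TRIB3, both lower with NRF2 siRNA. Over all tested regions the groups were apart in 12.8% (lower) and 7.39% (higher).

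Other genes of the same pathways were taken from lists. The shares to set beside their counts are those over all tested regions, 48.5% with a change below 0, 3.39% called lower and 2.01% called higher, and a median of 0.02. All tested regions include many that hold no gene start. The shares over start regions of coding genes alone are not given here, so the start counts below lack a like background. For 32 further ATF4 target genes, 26 start regions were tested, of which 20 had a change below 0 and 6 above, with a median of -0.18; 0 passed the limma threshold in either direction. The lowest of them was GPT2, an alanine transaminase, at -0.92 (limma adjusted p = 0.0634), and SLC7A11, the cystine transporter that is also a direct NRF2 target, had -0.74 (limma adjusted p = 0.0765). Of 14 serine and glycine handling genes, 9 starts were tested, with 5 below 0 and 4 above and 0 called. The lowest was SLC1A5, a transporter of glutamine and serine, at -0.91 (limma adjusted p = 0.0519). With the replicate block it passed (limma adjusted p = 0.0223), while GPT2 (limma adjusted p = 0.0521) and SLC7A11 (limma adjusted p = 0.0529) did not. Of 17 folate and one-carbon genes, 11 starts were tested, with 6 below 0, 5 above and 0 called. The 6 eIF2 alpha kinase and phosphatase genes, which act upstream of ATF4, had 3 below 0, 3 above and 0 called.

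Of 168 tested regions in the windows of these lists, 3 were called lower (1.79%) and 1 higher (0.595%), both below the shares over all regions, and none of them held the start of the listed gene. With the replicate block 10 were called lower (5.95%) and 2 higher (1.19%), where that fit called 6.62% of all regions lower and 5.72% higher. The 4 called without the block were named after their values were seen. Lower with NRF2 siRNA were a region in MTHFD1L (change -1.27, limma adjusted p = 0.0395), a region at the start of MAFG in the window of PYCR1 (-1.38, limma adjusted p = 0.0134) and one at the start of FECH in the window of NARS (-1.85, limma adjusted p = 0.00953). Higher was a region 16.0 kb from the start of SLC6A9, a glycine transporter (0.82, limma adjusted p = 0.0467). Over all tested regions of each list the median change was -0.17 for ATF4 targets (71 regions), 0.05 for serine and glycine handling (31), 0.02 for folate and one-carbon genes (51) and 0.17 for the eIF2 alpha genes (15).

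The difference between siRNA 28 and siRNA 30, entered as a term in limma with 1 residual degree of freedom, passed the threshold at 0 of 32673 regions and 0 of 21 member regions. At an unadjusted p under 0.05 it passed at 5 of 21 member regions, against 15.4% of all regions. Pair 1 had a higher score difference than pairs 2 and 3 at the starts of SHMT2 and MTHFD2 and at the shared start of SMCR8 and TOP3A, and a lower one in the region 21.1 kb inside PSPH (-1.27 against -0.14 and 0.11). The last was the canonical start of PHGDH, where pair 1 holds the tied value of a region called in neither library. The term rests on 1 library with siRNA 28.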

How the data were processed

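The deposited broad peak lists of 6 H3K27ac libraries were used, 1 per library (3 control siRNA, 3 NRF2 siRNA); the 2 input samples were not used here. The authors sequenced single-end reads, aligned them to hg19 with Bowtie2 2.2.6, used SAMtools to drop poorly mapped reads, called peaks in each library with MACS2 2.1.0.20151222, and filtered them against the ENCODE blacklist. Which background library MACS2 used is not given in the sources used here. Each deposited peak has an integer score set by the authors' peak caller, a fold enrichment (a ratio over background), and −log10 values of its p-value and q-value. Lists hold no counts behind a peak, so no interval that needs them is given; the study's reporting summary gives read totals, lowest for replicate 1 of both groups, which were not used here; by the study's methods, the 3 experiments were independent.

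Genes, exons and starts came from GENCODE release 44 lifted to GRCh37, whose sequence held all 24 chromosomes with peaks and no peak past an end; 136 of 202238 peaks lay on unplaced contigs. The canonical start is that of the transcript tagged canonical there, and the gene record start is the outermost. In each library a region took its highest fold enrichment. Regions called in at least 3 libraries were ranked, uncalled ones taking the tied lowest rank, and normal scores were fitted with limma 3.58.1 (lmFit, eBayes) in R 4.3.3, adjusted p threshold 0.05, two-sided. Permutation tests were exact and two-sided, and the paired ones changed signs within same-numbered pairs. The limma step was run on simulated scores with independent normal noise and some shifted regions. These had no tied ranks, unequal lists or pairing, so they do not check the fit where those occur. Other steps used Python 3.11.15 and pysam 0.24.0.

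Deviations from the group mean correlated, over regions, between libraries of the same number (r = 0.398, 0.199 and 0.363). Between libraries of different number r ran from -0.383 to 0.107. List length also rose with the replicate number in both groups, so these values cannot show that the numbers pair the libraries. Pairs were taken from the replicate numbers in the sample titles, and the fit with the block was an alternative. Regions named were each gene's start region, the best-ranked other region per gene and any past the threshold. The canonical start was added after the data were seen. Further regions were named where groups did not overlap or where the only 2 calls lay in 1 group. A few others are given with their values. Members and gene lists were chosen with earlier results of these data known. Of 8 markers of other cell types, 7 were found in the annotation.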

Additional observations from a re-analysis of the deposited data

How the results depend on the processing

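The replicate block, which pairs libraries by number, left 1 member region called lower (ASNS). ASNS was also the 1 called when each list was reduced to its top 23885 peaks by fold, giving equal list lengths. It was the 1 called with the trend and robust options of eBayes. With both block and equal lengths 2 were called, ASNS among them. The second was the region at the SUMF2 start near PSPH (change -0.80, limma adjusted p = 0.0446). These counts are out of 21 tested member regions, or 18 at equal list lengths. The block called 6.62% of all regions lower, and the shares over all regions in the other fits are not given here. Within 100 kb of the genes 2 of 43 tested regions were called lower, where 3.39% of all tested regions were. They lay 80859 bp from the gene record start of TRIB3 and 85590 bp from that of PSAT1 (limma adjusted p = 0.0463 and 0.0498). Called in controls alone were 3 regions, these and one 78427 bp from the SHMT2 start, beside 2.27% of all merged regions. Leaving out each library in turn gave 0 to 1 called lower (1 without NRF2 siRNA replicate 3), 0 to 1 called in controls alone and 0 to 2 called with NRF2 siRNA alone. Calls higher stayed at 0 in every fit. Among named member regions, the pathway starts and the 4 pathway regions called, the block changed 1 further call, at the SLC1A5 start (limma adjusted p = 0.0223). Over the 13 alternatives the limma adjusted p at ASNS ran from 0.00722 to 0.586, the latter when peak width was ranked. With a q-value of at most 1e-05 or regions called in all 6 libraries ASNS was not tested.

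Some changes that missed the threshold in the reported fit turned sign. Ranking by width gave 0.0604 at the PSAT1 start, 0.19 at the PSPH start, 0.77 at the SUMF2 start, -0.0094 at the SMCR8 and TOP3A start and -0.10 at the SHMT2 start. A q-value of at most 1e-05 gave 0.28 at the RPS19BP1 start and -0.23 at the SMCR8 and TOP3A start, which had -0.0165 among regions called in all 6. Without single libraries, the change ran from -0.11 to 0.11 at the ATF4 start, -0.24 to 0.18 at the RPS19BP1 start, -0.17 to 0.0647 at the PSPH start, -0.49 to 0.0386 at the SHMT1 start, -0.18 to 0.16 at the SMCR8 and TOP3A start, -0.39 to 0.0261 at the MOB1A start and -0.25 to 0.0374 upstream of CHAC1. Percentile differences turned at starts of the gene record: by q-value -3.43 at ATF4; by width -1.68 at ATF4, 5.75 at PHGDH, 1.42 at PSPH and -10.4 at SHMT2; and without single libraries from -3.66 to 2.63 at ATF4, -13.4 to 9.39 at PHGDH, -7.56 to 2.04 at PSPH, -27.2 to 10.1 at SHMT1 and -20.6 to 9.02 at MTHFD2. The causes were not tested. Using the canonical start, an alternative chosen after seeing the data, changed the direction at neither PHGDH nor MTHFD2.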
